A study of Mus musculus with 6 samples.

Results

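The genes described here are 10 components of mTORC1 signalling and of nutrient sensing at the lysosome: Mtor, Rptor, Rictor, Rheb, Tsc1, Tsc2, Deptor, Rragc, Rragd and Flcn. They were chosen by name from the 55416 gene identifiers in the count table, all 10 were found, and all 10 passed the filter on low counts. They were measured by messenger RNA sequencing in MB21, a mouse medulloblastoma line labelled as Ptch mutant, which grew unattached in DMEM/F12 with B27. 3 libraries came from cells given DS-1-38 (DS38 in the sample names), a benzarone derivative, at 10 uM for 1 day, and 3 from cells given the vehicle DMSO for 1 day. The title, sample labels and treatment protocol name 1 day, whereas the design text names 5 days. Both groups thus share the line, its Ptch mutation and the medium. The labels do not say whether libraries of a group came from separate cultures, so p-values measure the spread between these libraries, which may be technical. The series is a single line at 1 dose and 1 time.

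mTOR is a kinase that works in a pair of complexes. Raptor (Rptor) defines mTORC1, which promotes growth and represses autophagy, Rictor defines mTORC2, and Deptor binds and inhibits mTOR in both. The GTPase Rheb switches mTORC1 on at the lysosome and the Tsc1-Tsc2 complex switches Rheb off. Amino acids act through Rag GTPases, dimers of RagA or RagB with RagC or RagD, that bring mTORC1 to the lysosome, and folliculin (Flcn) acts on RagC and RagD within them. In granule neuron progenitors, the cells from which hedgehog-driven medulloblastoma arises, mTOR signalling is known to support growth. The data below are RNA levels and carry no measure of kinase activity or of protein.

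Library totals were 60434089 to 84044428 counts in DS38 and 38840296 to 50014681 in DMSO, so depth and treatment moved together, and the part of depth was examined only by thinning. DMSO replicate 3 stood apart from the other libraries on the second principal component, which held 22.2% of the variance. Markers of the granule cell lineage were abundant, with 8 of 8 detected, 2 called higher and 5 lower. Over all tested genes, edgeR called 12.9% higher and 11.7% lower, and the marker counts below stand beside the same shares. Summed levels of the granule lineage markers were 1893 to 1935 CPM (counts scaled to a common library total, after TMM normalization) in DS38 and 1911 to 1950 CPM in DMSO. Atoh1 (log2 fold change 0.33) and Barhl1 (0.27) rose, Neurod1 (-0.37), Ptch1 (-0.19), Gli1 (-0.15), Zic2 (-0.14) and Zic1 (-0.10) fell, and Pax6 did not pass (edgeR, adjusted over all genes). Summed microglial markers reached at most 0.164 CPM in DS38 and 0.336 CPM in DMSO, and those of endothelium and fibroblasts (5 of 6 detected) at most 1.93 CPM in DS38 and 1.45 CPM in DMSO, with 1 of 3 tested called higher (Col1a1, 0.822 CPM in DS38 and 0.373 CPM in DMSO). Tyrobp, Kdr and the granule neuron gene Gabra6 had 0 counts in all 6 libraries. Summed neuronal markers (2 of 4 tested called higher, Snap25 and Syt1) were at 147.8 to 156 CPM in DS38 and 147.7 to 149 CPM in DMSO. Rbfox3 gave the largest part (96.0 CPM in DS38 and 97.6 CPM in DMSO). Summed astrocyte markers were at 143 to 149 CPM in DS38 and 144 to 152 CPM in DMSO. Nearly all of this came from Slc1a3 (139 CPM in DS38 and 144 CPM in DMSO). Of 3 astrocyte markers tested, 1 was called higher (Gfap, 5.402 CPM in DS38 and 4.33 CPM in DMSO). S100b had 0.612 CPM in DS38 and 0.788 CPM in DMSO, and Aqp4 and Aldh1l1 had 3 and 8 counts over all 6 libraries. Summed oligodendrocyte markers (5 of 5 detected, 1 called higher) were at 26.2 to 29.1 CPM in DS38 and 23.8 to 24.9 CPM in DMSO, without overlap, mostly from Olig1. Their part in the results below was not tested. In such bulk samples, a change in the share of cells of a type and a change in RNA per cell cannot be told apart.

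Among the 10 members, Rragd rose clearly, Deptor and Rheb rose by smaller amounts, and Rictor fell slightly. The other 6 (Mtor, Rptor, Tsc1, Tsc2, Rragc and Flcn) did not pass. Thus 3 of 10 rose, where edgeR's quasi-likelihood test (Benjamini-Hochberg adjustment over 17679 genes, threshold 0.05) called 12.9% of all tested genes higher, and 1 of 10 fell, where it called 11.7% lower and 24.5% in either direction. The median log2 fold change, DS38 over DMSO, was 0.02 over the members and 0.004 over all tested genes. The members were chosen with earlier results of these data known, so their counts and median are no independent test against all genes. The groups did not overlap for 4 members, Rragd, Deptor and Rheb (higher in DS38) and Tsc1 (lower), where 38.6% of all tested genes did not overlap. With library size as the sole scaling, 68.1% of all calls were higher instead of 52.4%, and 4 members rose and 0 fell.

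**Figure D1:**
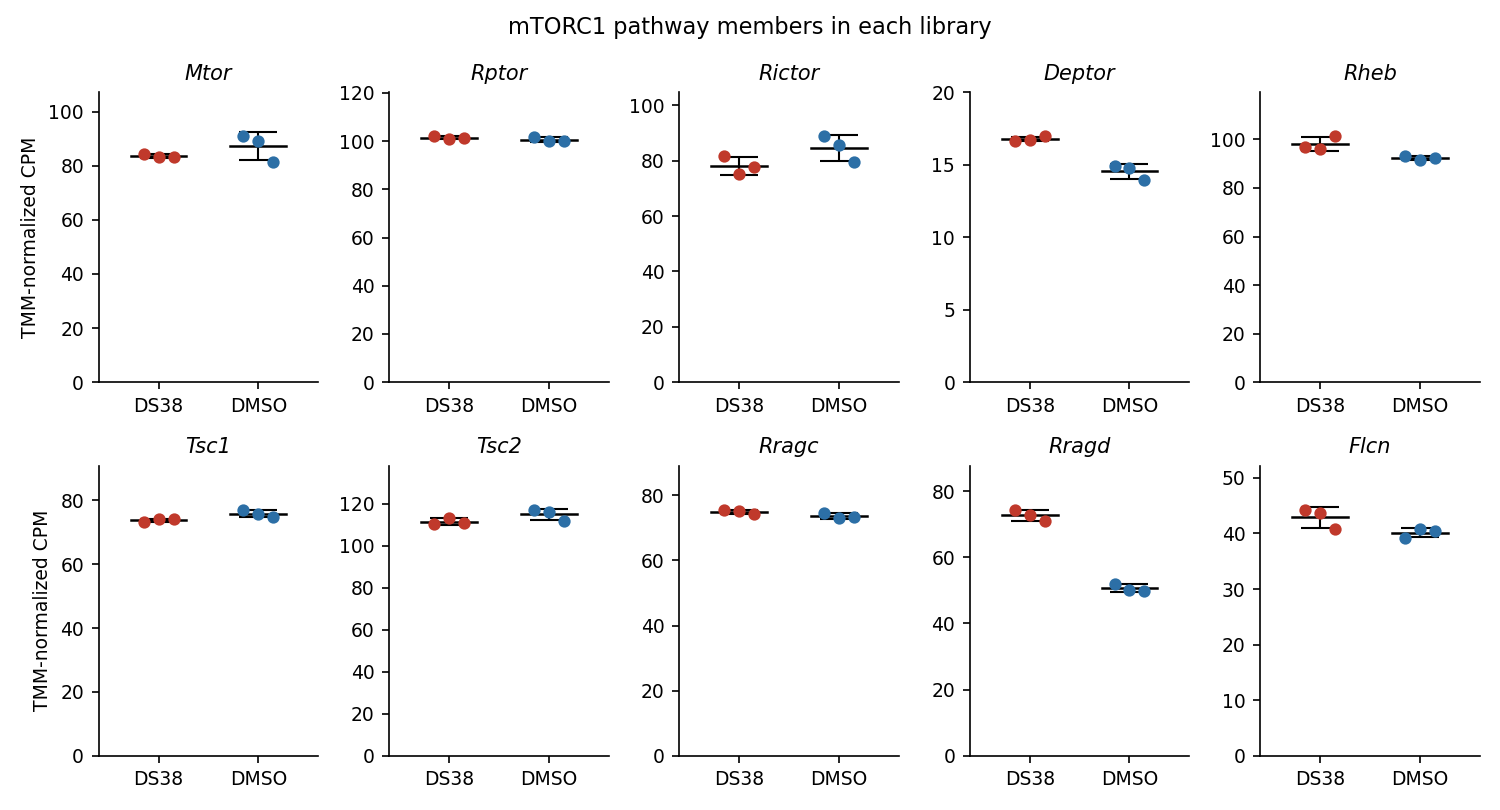
TMM-normalized CPM (vertical axis, from 0) of the 10 members in each of the 3 DS38 (red) and 3 DMSO (blue) libraries, with the mean and SD as black lines. Rragd lies at 70.9 to 74.4 CPM in DS38 and 49.7 to 51.95 CPM in DMSO, whereas the points of most other members lie at nearly the same height in both groups.

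Rragd encodes RagD, a partner of RagA or RagB in the Rag dimer and a known target gene of the MiT/TFE transcription factors (TFEB, TFE3 and MITF). It had 74.4, 72.8 and 70.9 CPM in DS38 replicates 1 to 3, against 51.95, 50.1 and 49.7 CPM in DMSO replicates 1 to 3. All DS38 libraries were above all DMSO libraries, and the gap between the groups exceeded the spread within either. The level was 43.6% higher in DS38 (95% interval 36.6% to 50.9%; log2 fold change 0.52 ± 0.035 SE; edgeR adjusted p = 8.554e-10). Only 14 of the 17679 tested genes had a smaller p, while 739 had a larger rise, most of them not called: 300 genes, Rragd included, were called and rose at least as much. Across the 16 alternative settings its log2 fold change was 0.49 to 0.56, and it passed in every one.

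Rragc, which encodes RagC and is the closest relative of Rragd, had 75.6, 75.1 and 74.3 CPM in DS38 and 74.6, 72.9 and 73.4 CPM in DMSO. The groups overlapped, and the change of 1.84% (95% interval -2.65% to 6.53%) did not pass (edgeR adjusted p = 0.587). Its exons share 7.9% of their bases with an antisense transcript, and the strand setting of the counting is not given in the sources used here. Per kilobase of gene length (RPKM), which allows genes to be compared, Rragd stood at 0.635, 0.626 and 0.617 of the Rragc level in DS38 replicates 1 to 3, against 0.450, 0.444 and 0.438 in DMSO replicates 1 to 3. This ratio does not depend on library scaling. On the log2 scale it was 0.50 higher in DS38, with no overlap, and leaving out any library gave 0.49 to 0.51; the exact two-sided permutation p was 0.1, the smallest that 3 against 3 libraries allow (adjusted p = 0.5 over 5 ratios). Rragd made up 38.5% of the summed Rragc and Rragd level in DS38 and 30.7% in DMSO, and the sum was 36.5 ± 0.529 RPKM in DS38 and 31.8 ± 0.480 RPKM in DMSO (SD, n = 3 each).

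The promoter windows of Rragd, which passed the test, and Rragc, which did not, are shown from the RefSeq tables on GRCm38.p6. Each runs from 250 bases before to 50 after the RefSeq start, 5′ to 3′ on the gene's strand; Rragd is at chr4:32982748-32983047 and Rragc at chr4:123917183-123917482, both on the plus strand. Capitals mark TCACGTG, an E-box with a preceding T of the kind that MiT/TFE and other basic helix-loop-helix factors bind, on either strand.
Rragd: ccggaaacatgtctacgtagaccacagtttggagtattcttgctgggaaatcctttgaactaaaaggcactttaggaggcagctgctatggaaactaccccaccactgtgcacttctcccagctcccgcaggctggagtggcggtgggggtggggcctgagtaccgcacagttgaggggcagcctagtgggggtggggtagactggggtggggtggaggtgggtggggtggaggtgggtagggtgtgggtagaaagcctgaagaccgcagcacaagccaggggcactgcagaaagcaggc
Rragc: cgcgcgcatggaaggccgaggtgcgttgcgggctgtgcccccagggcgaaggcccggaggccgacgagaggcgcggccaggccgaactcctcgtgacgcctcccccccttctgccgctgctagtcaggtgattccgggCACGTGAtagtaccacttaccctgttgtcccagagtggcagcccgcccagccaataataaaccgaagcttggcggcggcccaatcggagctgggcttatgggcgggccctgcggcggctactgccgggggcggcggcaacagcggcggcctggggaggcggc
The Rragc window holds 1 match, as does that of Rheb, and none is in the Rragd window. The 6-base core CACGTG, which lies within TCACGTG, likewise occurs in these 2 of the 9 members with a window, the exception being Deptor. Among all 32851 windows held by RefSeq for this build, the core is present in 7.15% and the longer motif in 3.77%. The letters TTGCATC, part of the element bound by ATF4 and its partners, occurs in 2.53% of all windows and in 0 of the 9. The GENCODE M21 annotation places some starts elsewhere. For Rheb its 1 coding start lies 13 bases before the window, so by that annotation the Rheb match lies after the start, within the transcript. For Rptor both coding starts lie past the window's end, the nearer by 195 bases. For Rragd 1 of 3 coding starts is in the window and the others are 108 and 407 bases past its end, with surroundings that were not searched.

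Flcn encodes folliculin, which drives RagC and RagD to their GDP-bound form and is, like Rragd, a known MiT/TFE target. It had 44.3, 43.7 and 40.7 CPM in DS38 and 39.2, 40.8 and 40.5 CPM in DMSO. DS38 replicates 1 and 2 were above every DMSO library, while DS38 replicate 3 lay within the DMSO range. The 6.81% difference (95% interval 0.696% to 13.3%) did not pass (edgeR adjusted p = 0.0966). It passed without DS38 replicate 3 (log2 fold change 0.13; edgeR adjusted p = 0.0368) and with library size alone (0.13; edgeR adjusted p = 0.0251).

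Rheb encodes the GTPase that activates mTORC1. It had 96.9, 96.1 and 101 CPM in DS38, against 93.2, 91.5 and 92.3 CPM in DMSO. The groups did not overlap, and DS38 replicate 3 was the highest library. The rise was 6.29% (95% interval 1.61% to 11.2%; log2 fold change 0.09 ± 0.031 SE; edgeR adjusted p = 0.0436). The call was near the threshold and was lost in 9 of 16 settings, among them all 6 that leave out a library: edgeR adjusted p = 0.0779, 0.0566 and 0.211 without DS38 replicates 1, 2 and 3, and 0.0534, 0.138 and 0.0543 without DMSO replicates 1, 2 and 3. It was also lost with the replicate number as a block (edgeR adjusted p = 0.0776), RLE size factors (0.0696) and DESeq2 (adjusted p = 0.0926). Its relative Rhebl1 was low, at 6.78 ± 0.408 CPM in DS38 and 5.99 ± 0.403 CPM in DMSO (SD, n = 3 each), and did not pass (edgeR adjusted p = 0.141). Of its exon bases 18% are shared with other genes.

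Tsc1 and Tsc2 encode hamartin and tuberin, the scaffold and the GTPase-activating subunit of the complex that restrains Rheb. Tsc1 had 73.2, 74.0 and 74.1 CPM in DS38 and 77.1, 75.7 and 74.8 CPM in DMSO. Every DS38 library was below every DMSO library, with DS38 replicate 3 and DMSO replicate 3 close together, and the change of -2.75% (95% interval -7.04% to 1.73%) did not pass (edgeR adjusted p = 0.381). Tsc2 had 110.4, 113 and 111 CPM in DS38 and 117, 116 and 112 CPM in DMSO. Its groups overlapped and the change of -3.05% (95% interval -7.14% to 1.23%) did not pass (edgeR adjusted p = 0.302). Of the Tsc2 exon bases 7.2% are shared with Pkd1 on the opposite strand, which fell (log2 fold change -0.13 ± 0.042 SE; edgeR adjusted p = 0.0217), and the part of Pkd1 reads in the Tsc2 counts was not tested. The Tsc1 over Tsc2 ratio was 0.539, 0.531 and 0.543 in DS38 replicates 1 to 3, against 0.535, 0.531 and 0.543 in DMSO replicates 1 to 3 (exact two-sided permutation p = 0.9). Both genes thus kept nearly the same proportion in all 6 libraries. The correction for gene length was not applied to this ratio. With it, the log2 fold change was 0.011 for Tsc1 and -0.023 for Tsc2.

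Mtor, the kinase itself, had 84.5, 83.3 and 83.2 CPM in DS38 and 90.9, 89.3 and 81.4 CPM in DMSO. DMSO replicates 1 and 2 were above all DS38 libraries and DMSO replicate 3 below them. The change of -4.21% (95% interval -9.11% to 0.953%) did not pass (edgeR adjusted p = 0.233), but passed without DMSO replicate 3 (log2 fold change -0.11; edgeR adjusted p = 0.00873). Rptor, which encodes the substrate-binding subunit of mTORC1, had 102, 100.9 and 101 CPM in DS38 and 102, 100.2 and 99.9 CPM in DMSO. Its 6 libraries lay closer together than those of any other member, and the change was 0.792% (95% interval -3.36% to 5.12%; edgeR adjusted p = 0.821). With the correction for gene length, Rptor passed as higher (log2 fold change 0.08; edgeR adjusted p = 0.0336).

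Rictor, the defining subunit of mTORC2, had 81.6, 75.3 and 77.6 CPM in DS38, against 88.9, 85.7 and 79.6 CPM in DMSO. DMSO replicate 3 lay within the DS38 range, so the groups overlapped. Rictor fell by 0.12 on the log2 scale (SE 0.039; 95% interval -0.20 to -0.04; edgeR adjusted p = 0.0310). The call was lost in 7 of 16 settings: without DS38 replicate 2 or 3 (edgeR adjusted p = 0.168 and 0.102), without DMSO replicate 1 or 2 (0.171 and 0.111), with library size alone (0.106), after thinning all libraries to the smallest total (0.0752) and with the correction for gene length, where the log2 fold change was -0.009 (0.873). Rictor has the longest gene model of the members, at 16930 bases. The Rictor over Rptor ratio, mTORC2-defining over mTORC1-defining, was 0.637, 0.593 and 0.609 in DS38 replicates 1 to 3, against 0.695, 0.680 and 0.634 in DMSO replicates 1 to 3. These ranges overlapped (exact two-sided permutation p = 0.2; adjusted p = 0.5 over 5 ratios).

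Deptor, which encodes the inhibitor bound to mTOR, had 16.65, 16.68 and 16.95 CPM in DS38, against 14.9, 14.8 and 13.96 CPM in DMSO. Every DS38 library was above every DMSO library. Deptor rose by 15.1% (95% interval 6.33% to 24.6%; log2 fold change 0.20 ± 0.055 SE; edgeR adjusted p = 0.00909). It passed when each library in turn was left out (edgeR adjusted p = 0.0155 to 0.0369) but not after thinning to the smallest library (log2 fold change 0.16; edgeR adjusted p = 0.0612). Its exons share 3.41% of their bases with Gm9920 on the opposite strand, which had 20 counts in the 3 DS38 libraries and 6 in the 3 DMSO libraries.

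**Figure D2:**
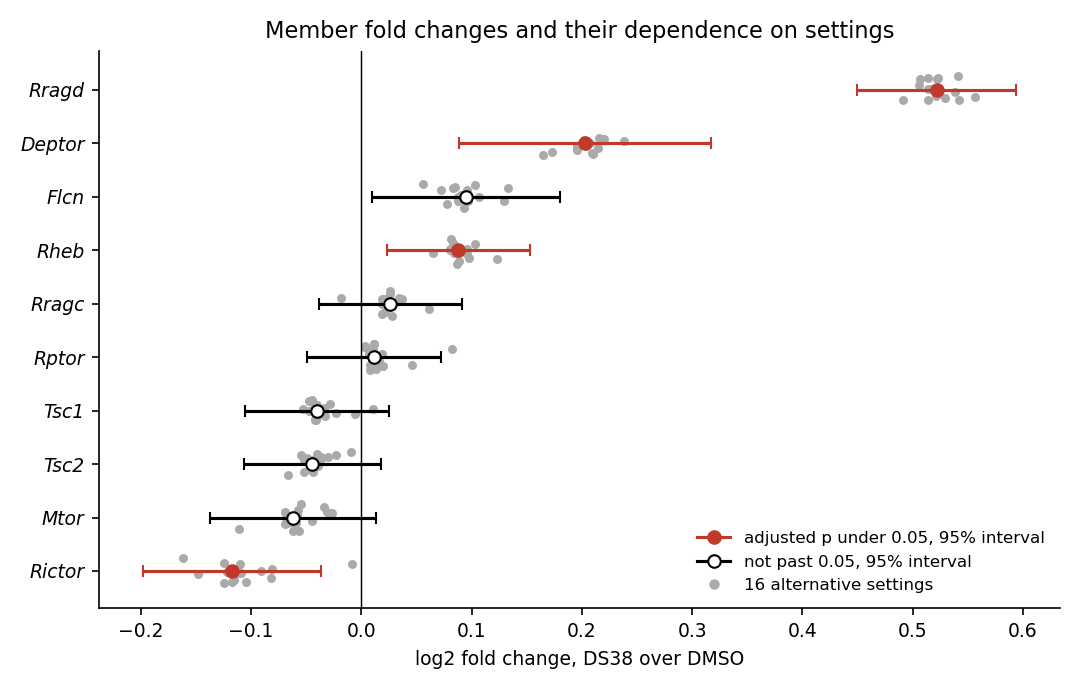
Log2 fold change of DS38 over DMSO (horizontal axis) for each member, with its 95% interval; filled red points passed an edgeR adjusted p of 0.05, open points did not, and grey points give the 16 alternative settings, spread vertically for visibility. Rragd stands apart at 0.52, with alternatives from 0.49 to 0.56, and the grey points of Tsc1 and Rragc reach across 0.

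Per gene length the members spanned a wide range. Rragc was highest, at 22.4 ± 0.198 RPKM in DS38 and 22.04 ± 0.262 RPKM in DMSO, and Deptor lowest, at 1.89 ± 0.0187 RPKM in DS38 and 1.64 ± 0.0571 RPKM in DMSO (SD, n = 3 each). In DS38 the order was Rragc, Rragd (14.1 RPKM), Rheb (12.7 RPKM), Tsc2 (11.6 RPKM), Flcn (9.93 RPKM), Mtor (8.28 RPKM), Rptor (7.53 RPKM), Tsc1 (6.24 RPKM), Rictor (4.62 RPKM) and Deptor, and no neighbours in it overlapped. In DMSO Rragd came after Rheb (11.96 RPKM) and Tsc2 (11.95 RPKM), at 9.78 RPKM, and the others kept that order. Rheb and Tsc2 overlapped in DMSO and were the only neighbours to do so. Levels rest on the deposited gene lengths, which can exceed the transcript a cell makes.

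**Figure D3:**
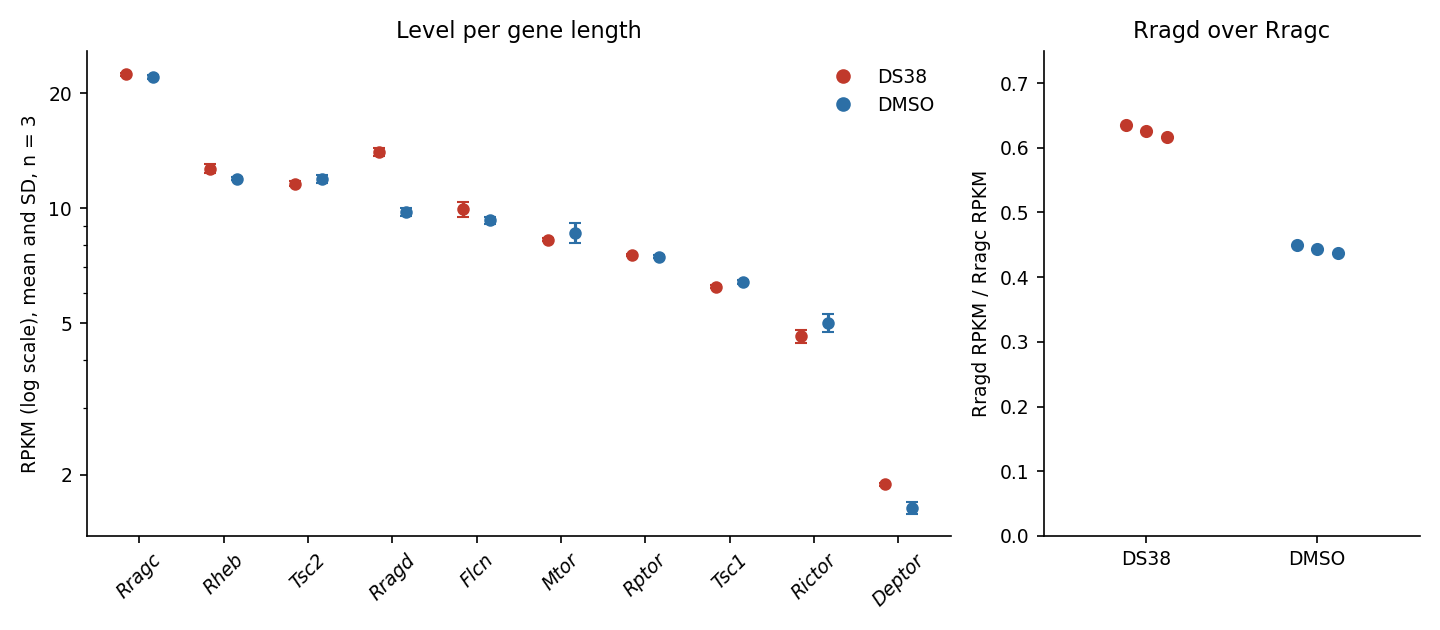
Left, level per gene length (RPKM, log axis; mean and SD of 3 libraries) of each member in DS38 (red) and DMSO (blue), ordered by the DMSO level; right, the Rragd level divided by the Rragc level in each library. Rragd lies above Rheb and Tsc2 in DS38 and below them in DMSO, and the ratio is 0.617 to 0.635 in DS38 and 0.438 to 0.450 in DMSO.

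Beyond the members, 78 genes of the same pathway were listed by role, also with earlier results of these data known. By symbol, 77 of them were matched, 73 were tested, 18 rose, 6 fell and 49 did not pass (edgeR, adjusted over all genes, where 12.9% of all tested genes rose and 11.7% fell). Their median log2 fold change was 0.05, beside 0.004 over all tested genes. The number that fell was 10 without DMSO replicate 3 and 3 without DS38 replicate 1, DS38 replicate 2 or DMSO replicate 1.

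Among other subunits and assembly factors of the mTOR complexes, 1 of 7 tested genes rose and 1 fell. Over all tested genes 12.9% rose and 11.7% fell. In this list 2 fell without DMSO replicate 2, with RLE size factors, with a 5 CPM filter or after the length correction. With library size alone, 2 rose. Telo2, which helps to assemble mTOR and related kinases, had 34.6, 36.4 and 35.8 CPM in DS38, against 30.9, 32.8 and 32.1 CPM in DMSO, without overlap (log2 fold change 0.16 ± 0.042 SE; edgeR adjusted p = 0.00767). Prr5 (Protor-1), an mTORC2 subunit, had 45.4, 45.7 and 44.4 CPM in DS38, against 49.97, 50.2 and 49.9 CPM in DMSO, also without overlap (-0.15 ± 0.035 SE; edgeR adjusted p = 0.00358). Prr5l was not tested, with 11 counts in the 3 DS38 libraries and 0 in the 3 DMSO libraries.

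Of the remaining Rag GTPases and the Ragulator complex, which anchors the Rags to the lysosome, 0 of 8 genes passed with edgeR, DESeq2 or limma-voom in either direction, while 2 were higher and 0 lower at an unadjusted p under 0.05; with the correction for gene length 1 was lower. Rraga averaged 75.7 ± 1.59 CPM in DS38 and 72.0 ± 2.39 CPM in DMSO (SD, n = 3 each; log2 fold change 0.07; edgeR adjusted p = 0.114), and Lamtor2 39.1 ± 1.57 CPM in DS38 and 36.7 ± 0.629 CPM in DMSO (0.09; edgeR adjusted p = 0.106). Both passed when scaled by library size only (edgeR adjusted p = 0.0228 and 0.0246), and Rraga passed when DMSO replicate 3 was left out (log2 fold change 0.10; edgeR adjusted p = 0.0319). Rragb averaged 34.7 ± 1.43 CPM in DS38 and 33.0 ± 0.597 CPM in DMSO (SD, n = 3 each; edgeR adjusted p = 0.214). The Rraga over Rragb ratio of RPKM was 3.13, 3.12 and 2.90 in DS38 replicates 1 to 3, against 3.02, 2.96 and 3.15 in DMSO replicates 1 to 3, and these ranges overlapped (exact two-sided permutation p = 1).

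Folliculin's partners and the GATOR and KICSTOR complexes, which set the nucleotide state of the Rags, held 13 tested genes. Of these, 3 rose and 0 fell, where 12.9% of all tested genes rose and 11.7% fell. At an unadjusted p under 0.05, 1 was lower. DESeq2 and limma-voom also called 0 lower, 1 fell without DMSO replicate 3, and 2 fell with the correction for gene length. Nprl3, a subunit of the GATOR1 complex that inactivates RagA and RagB, had 12.5, 12.6 and 12.7 CPM in DS38, against 9.64, 10.8 and 9.44 CPM in DMSO (log2 fold change 0.34 ± 0.066 SE; edgeR adjusted p = 5.967e-04). Its exons share 17.7% of their bases with Mpg on the opposite strand, which had 56 counts in DS38 and 51 in DMSO. Fnip1, folliculin's binding partner, had 89.5, 87.3 and 92.7 CPM in DS38, against 82.4, 84.3 and 81.1 CPM in DMSO (0.12 ± 0.033 SE; edgeR adjusted p = 0.00838; 0.0641 without DS38 replicate 3). Wdr24, of the GATOR2 complex that opposes GATOR1, had 29.2, 26 and 28.03 CPM in DS38, against 24.1, 25.3 and 24.3 CPM in DMSO (0.18 ± 0.049 SE; edgeR adjusted p = 0.0102; 0.0781 without DS38 replicate 1). The groups of all 3 genes did not overlap. The symbol Kics2 was not matched.

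Amino acid sensors and stress-induced inhibitors of mTORC1 held 4 genes that rose and 1 that fell of 8 tested (2 fell without DMSO replicate 3). Over all tested genes 12.9% rose and 11.7% fell. Trib3, a pseudokinase that binds AKT, had 12.5, 11.8 and 13.3 CPM in DS38, against 5.67, 7.32 and 6.59 CPM in DMSO (log2 fold change 0.95 ± 0.083 SE; edgeR adjusted p = 4.456e-08). Sesn2, a leucine sensor that binds GATOR2 and is induced under amino acid shortage, had 47.7, 48.5 and 48.4 CPM in DS38, against 36.5, 37.2 and 35.1 CPM in DMSO (0.41 ± 0.038 SE; edgeR adjusted p = 9.387e-08). In both genes the groups were well apart. Ddit4 (REDD1), which restrains mTORC1 through the Tsc complex, had 122, 131.5 and 112 CPM in DS38, against 106, 106 and 109.6 CPM in DMSO (0.18 ± 0.042 SE; edgeR adjusted p = 0.00251). Sar1b, a leucine sensor described in human cells, rose by 0.17 ± 0.041 SE (edgeR adjusted p = 0.00367). Sesn3 was the most abundant sestrin, at 305.6 ± 4.99 CPM in DS38 and 328 ± 16.5 CPM in DMSO (SD, n = 3 each). Its groups overlapped, with DMSO replicate 3 (309 CPM) within the DS38 range of 300 to 310 CPM. Sesn3 fell by 0.10 on the log2 scale (edgeR adjusted p = 0.0263). The call was lost on leaving out each library in turn other than DMSO replicate 3 (edgeR adjusted p = 0.0568 to 0.133). It was also lost with scaling by library size only (edgeR adjusted p = 0.105) and after correction for gene length (0.792). Castor1 was not tested, with 7 counts in DS38 and 0 in DMSO, and Ddit4l had 0 counts in either group; at most 3 counts over the 6 libraries would be 0.00831 CPM.

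Of the partners of Tsc, AMPK and the growth factor kinases, 3 of 18 tested genes rose and 2 fell. Over all tested genes 12.9% rose and 11.7% fell. In this list 5 rose without DS38 replicate 3 or DMSO replicate 3, and 6 with library size alone or with no filter. Tbc1d7, the third subunit of the Tsc complex, had 26.9, 26.6 and 27.5 CPM in DS38, against 21.4, 21.6 and 22.9 CPM in DMSO (log2 fold change 0.30 ± 0.047 SE; edgeR adjusted p = 6.150e-05), unlike Tsc1 and Tsc2, which did not pass; the difference between them was not tested. The regulatory subunits of PI3-kinase moved in opposite directions. Pik3r1 (p85-alpha) had 106, 104 and 100.3 CPM in DS38, against 129, 119.9 and 119 CPM in DMSO (-0.24 ± 0.034 SE; edgeR adjusted p = 1.895e-05). Pik3r2 (p85-beta) had 108, 106 and 102 CPM in DS38, against 87.5, 89.8 and 97.1 CPM in DMSO (0.20 ± 0.037 SE; edgeR adjusted p = 2.908e-04). Both changes passed in all 16 settings. Of the AMPK subunits, Prkab2 rose by 0.26 ± 0.054 SE (edgeR adjusted p = 0.00124). The catalytic Prkaa1 fell by 0.11 on the log2 scale (edgeR adjusted p = 0.0292). Its groups overlapped, with DMSO replicate 3 (75.7 CPM) within the DS38 range of 73.1 to 76.8 CPM. The Prkaa1 call was lost without DS38 replicate 1 or 2 (edgeR adjusted p = 0.132 and 0.114). The same held without DMSO replicate 1 or 2 (edgeR adjusted p = 0.143 and 0.127) and with library size alone (0.120). It was also lost after thinning (edgeR adjusted p = 0.0833) and with the replicate number as a block (0.0526).

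The list of mTORC1 and mTORC2 substrates also held targets of S6 kinase, such as Eef2k and Pdcd4. Of its 19 tested genes, 7 rose and 2 fell, where 12.9% of all tested genes rose and 11.7% fell. Without DS38 replicate 2 or DMSO replicate 1, 4 rose. Eef2k, the elongation factor kinase that S6 kinase inhibits, had 71.7, 70.1 and 73.9 CPM in DS38, against 56.3, 59.6 and 59.6 CPM in DMSO (log2 fold change 0.30 ± 0.035 SE; edgeR adjusted p = 2.146e-06). The S6 kinase genes moved in opposite directions: Rps6kb1 had 123, 124.5 and 126 CPM in DS38, against 141.5, 135 and 130.1 CPM in DMSO (-0.13 ± 0.032 SE; edgeR adjusted p = 0.00555), while Rps6kb2 had 17.5, 19.9 and 19.0 CPM in DS38, against 15.8, 16.3 and 16.4 CPM in DMSO (0.22 ± 0.057 SE; edgeR adjusted p = 0.00788; 0.0555 without DS38 replicate 2). Of the Rps6kb2 exon bases 23.7% are shared with Coro1b and Ptprcap on the opposite strand, and Coro1b rose by 0.23 ± 0.039 SE (edgeR adjusted p = 1.378e-04), so reads of the 2 genes cannot be told apart where strand was not counted. Pdcd4, a translation inhibitor degraded after S6 kinase phosphorylation, rose by 0.17 ± 0.035 SE (edgeR adjusted p = 0.00120). Of the MiT/TFE factors, which mTORC1 holds in the cytoplasm, Mitf had 5.57, 5.87 and 7.08 CPM in DS38, against 4.54, 5.34 and 4.19 CPM in DMSO (0.39 ± 0.11 SE; edgeR adjusted p = 0.0100; 0.0893 without DS38 replicate 3). Tfe3 (42.5 ± 2.02 CPM in DS38 and 41.0 ± 1.65 CPM in DMSO) and Tfeb (3.93 ± 0.102 CPM in DS38 and 3.60 ± 0.2998 CPM in DMSO; SD, n = 3 each) did not pass (edgeR adjusted p = 0.409 and 0.455). Larp1, which binds messenger RNAs of the translation machinery, fell by 0.09 on the log2 scale (edgeR adjusted p = 0.0209), a call lost on leaving out each DS38 library in turn (edgeR adjusted p = 0.0707 to 0.0894), without DMSO replicate 1 (0.0833) and when scaled by library size only (0.106). Sgk3 was not tested, with 19 counts in all libraries.

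**Figure D4:**
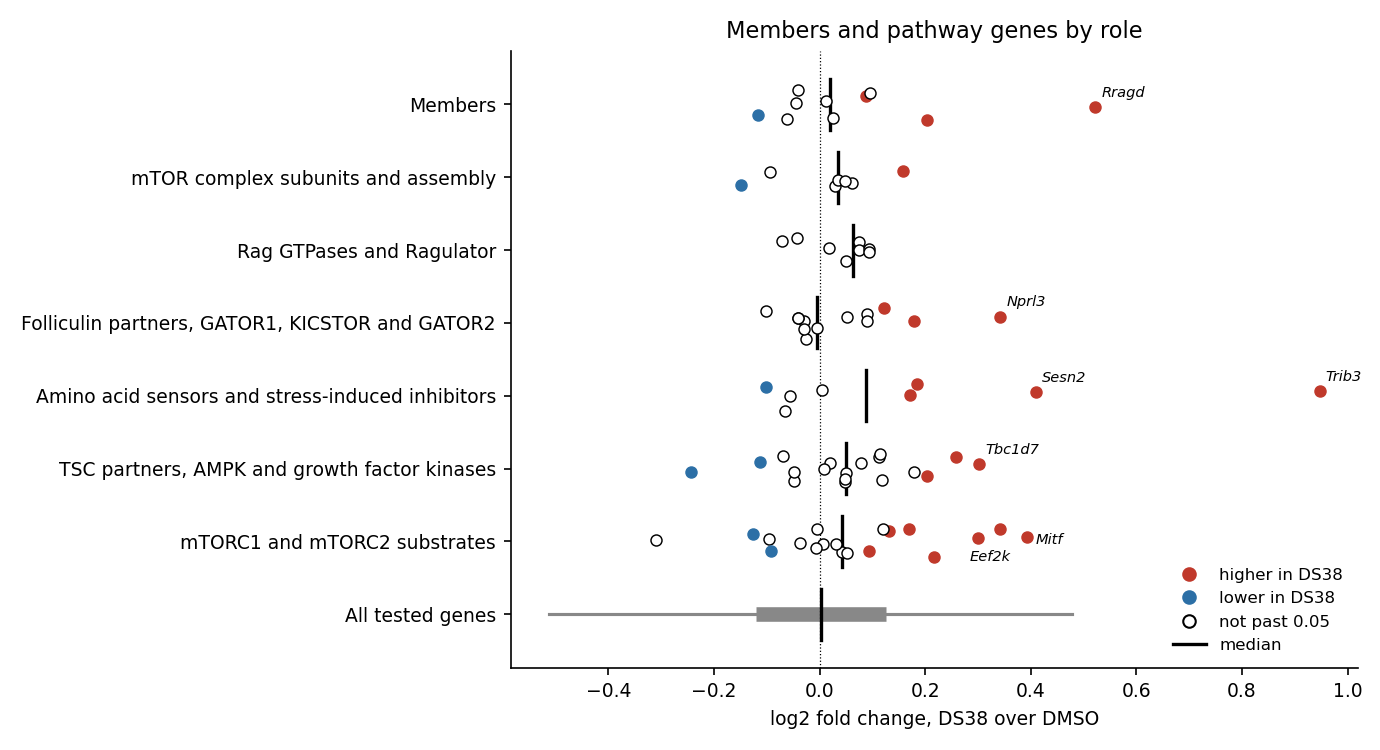
Log2 fold change of DS38 over DMSO (horizontal axis) for the members and the 73 tested pathway genes, a row per role; points are genes, red where higher, blue where lower and open where the edgeR adjusted p did not pass 0.05, and black lines are medians. The bottom row gives all 17679 tested genes, with the thick bar from the 25th to the 75th percentile (-0.12 to 0.13) and the thin line from the 5th to the 95th (-0.51 to 0.48). Trib3 at 0.95 and Rragd at 0.52 lie to the right of that line.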

How the data were processed

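Whole-number read counts per Ensembl gene, with gene lengths in bases, were deposited by the authors for 6 libraries. The submitters' processing notes list R 4.1.0 with edgeR, the counter featureCounts, Subread 2.0.3 and the aligner STAR 2.7.9a, beside the builds GRCm39 and GRCh38.p13, without role or order. No source used here gives the strand setting or how multi-mapping reads were treated. Symbols came from GENCODE M21 (52083 of 55416 identifiers), and promoters from RefSeq on GRCm38.p6, an older build.

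Genes kept by filterByExpr (minimum count 10, total 15) were scaled by TMM, and DS38 was set against DMSO with a quasi-likelihood fit in edgeR 4.0.16 (R 4.3.3), two-sided, adjusted (Benjamini-Hochberg) over 17679 genes at 0.05. The SE of a log2 fold change was derived as its absolute value over the square root of the test's F statistic. The 95% intervals were built from that SE and the t distribution, so both are approximations. RPKM divides CPM by the deposited length. A count of 0 is taken as at most 3 counts. The code was tested on simulated counts with 200 changed genes; figures were drawn with matplotlib 3.10.9 in Python 3.11.15.

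Alternatives were RLE factors, library size alone, DESeq2 1.42.0, limma-voom (limma 3.58.1), robust dispersion, no filter, a filter of at least 5 CPM in 3 libraries, a block for replicate number, a length correction (lowess, span 0.3), thinning, and leaving out each library. Members and lists were chosen with earlier results of these data known. Named were all members and, per list, the 4 of smallest adjusted p in each direction, or the 2 of smallest p where none passed, besides untested genes and partners in ratios; Tfe3 and Tfeb were added after their values were seen. Library pairs within a group differed by at least 2.79 times the chi-square expected of sampling noise, so none was merged.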

Additional observations from a re-analysis of the deposited data

How the results depend on the processing

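Under the 16 alternatives Rragd passed in all, and its log2 fold change was 0.49 to 0.56. Of the 10 members, 2 rose with RLE factors, DESeq2, thinning and the replicate block, 4 with library size alone and the length correction, and 2 to 3 when a library was left out. The number of members lower was 0 with library size alone, the length correction and thinning, and 0 to 2 when a library was left out. Of the pathway genes other than members, 3 were lower with library size alone, 10 with the length correction and 3 to 10 when a library was left out; 15 to 21 were then higher. Over all genes, 1640 to 2437 were then higher and 1549 to 2474 lower. With the length correction Tsc1 turned to 0.0107 and Rragc to -0.0185 on the log2 scale; neither passed before or after. The difference in the Rraga over Rragb ratio was -6.071e-04 after thinning, against 9.033e-04, and -0.0186 to 0.0362 when a library was left out; for Tsc1 over Tsc2 it was -0.00371 to 0.0132. Causes of these changes were not tested. With the replicate number as a block, 17 pathway genes were higher and 5 lower, and the member call lost was Rheb (log2 fold change 0.09). Libraries of equal number showed no clear pairing. Their deviations from the group means correlated at 0.0349, -0.0108 and -0.0266, and 1 of 3 DS38 libraries correlated best with its own number. With so few libraries these values cannot exclude a shared culture or day. Ratios do not depend on library scaling, filter or tool. The correction for gene length can change them but was not applied to them. They were recomputed by thinning and by leaving out each library, both added after seeing the data. For the 6 members that did not pass, the intervals printed beside them give the range of change that the fit allows.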

Other observations

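E-boxes of the TCACGTG kind were counted in the promoter windows of the whole pathway as a description. Of the 65 pathway genes other than members with a window, 7 held TCACGTG and 0 held TTGCATC in any of their windows. Over all single windows the shares were 3.77% and 2.53%. Some of these genes have several windows, so counts per gene and shares per window are not like for like. By role, TCACGTG was present in 3 of 7 windows of Rag GTPases and Ragulator (Rragb, with 3 matches, Lamtor1 and Lamtor4). In that list 0 of 8 genes passed with edgeR. The motif was also present for Fnip1, Telo2, Eef2k and Sgk1, which rose (Sgk1 by 0.34 on the log2 scale, edgeR adjusted p = 0.0114). Telo2, Eef2k and Sgk1 each have other windows without the motif, and the Telo2 match lies after the start. Trib3 and Sesn2 held none of the motifs within 250 bases upstream and 50 downstream of the RefSeq start. A match is not evidence of binding, and other sequence was not searched.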
